A study of Mus musculus with 20 samples.

Results

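Antisense RNAs are transcripts read from the strand opposite a gene. The 200 most abundant annotated ones were followed here in the cerebral cortex of mice that carry a mutant human tau transgene and of their wild-type counterparts. They were chosen as the 200 transcripts of antisense type, outside the table of mRNAs, with the highest mean level over all 20 libraries, out of 669 such transcripts, 3611 transcripts outside the mRNA table and 54271 transcripts in all. They belong to 172 genes. They were selected on this mean level alone, so the levels below are a description and carry no test. Levels are in FPKM as the authors deposited them, a unit that divides a transcript's fragments by its length and by the depth of the library.

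A long noncoding RNA made opposite a protein-coding gene can cover that gene's exons, lie inside an intron, or start beside the gene's own start and run the other way (a divergent pair). In brain and elsewhere some are known to act on the neighbouring gene through chromatin, splicing or the stability of the mRNA, and others have no known role. Antisense and sense RNA of a locus can rise together, can move apart, or can be unrelated.

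The tested animals carried Tg(Prnp-MAPT*P301S)PS19Vle, in which the prion protein promoter drives human tau with the P301S change, on a (C57BL/6 x C3H)F1 background; the wild-type mice were of the same background. Each genotype was sampled at 10 months (TG10M and WT10M) and at 3 months (TG03M and WT03M), with 5 libraries in each of the 4 groups, from total RNA of frozen cortex. The labels do not say that the libraries of a group come from separate animals, so p-values measure the spread between these samples. No feature for the human transgene was analysed here. In bulk tissue, fewer cells of a type and less RNA per cell cannot be told apart.

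Several facts of the series touch what follows. Defining markers of cortical neurons and glia were present in every library, and the summed level of 7 striatal markers ranged from 149 to 432 FPKM. Depth was estimated at 22.8 to 30.2 M fragments per library from the size of the smallest steps between values. The heat-shock gene Hsp90aa1 stood at 13.9 to 20.5 FPKM in 7 libraries (TG10M 1 and 5, WT10M 5, TG03M 2 to 5) and at 532 to 687 FPKM in the other 13; 6 of the 7 are transgenic and 1 is wild type. The first 3 of those 7 also had the lowest summed level of transcripts outside the mRNA table, 18903 to 19267 FPKM, and are called the libraries set apart. By this sum TG03M 3, 5 and 4 came next, at 20090, 23531 and 23674 FPKM. They were not set apart, so fits without the libraries set apart still hold them. Another split followed genotype. The mitochondrial transcript mt-Co1 stood at 8514 to 11807 FPKM in the 10 transgenic libraries and at 5998 to 6915 FPKM in 9 wild-type libraries, and Lars2 at 18.4 to 1840 FPKM in the transgenic and 6.61 to 14.3 FPKM in those wild-type libraries. WT10M 5 was the exception, with 13045 FPKM of mt-Co1 and 91.2 FPKM of Lars2. A difference between libraries of this kind and an effect of the transgene cannot be told apart in any comparison of genotypes below.

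Each antisense RNA was placed against the GENCODE M21 annotation of GRCm38, and the protein-coding gene opposite it or beside its start is called its partner. In that annotation the gene type was still antisense for 181 of the 200. It was protein-coding for 5, processed transcript for 5, bidirectional promoter lncRNA for 4, and pseudogene or sense intronic for 1 each. Exons of 150 of the 200 overlapped exons of the partner, 28 were divergent, 5 lay in an intron, 14 had no such partner and 3 (Gm15648, Gm17104 and Gm20680) were not placed. Among the overlapping ones, 59 faced mostly coding sequence, 52 mostly a 3' UTR and 28 mostly a 5' UTR. The share facing mostly a 3' UTR was 26% of the 200 and 9.6% of the 469 less abundant antisense transcripts. All bases lay opposite partner exons in 21 of the 200 (10.5%) and in 14 of the 469 (2.99%). Whether the strand was kept is not given, and the part of partner reads in which transcripts rank among the 200 was not tested.

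A spliced antisense RNA differs from its partner's mRNA in the strand and in the place where its exons join. The first exon joins of 6 members the results turn on are printed below from the GENCODE M21 transcripts, 15 bases from each side, 5' to 3' on the antisense strand, with capitals where the base faces an annotated exon of the partner.
Chn1os1: ctcagcagcctacagAGTTGCTCTTCTAAC
Gm28221: CTTTATCTTTTTGTGAAACTTGTATTAGCT
Gm14703: ggatgtggagacatggcctctggttttcct
Gm20659: TATAAGCAACTTAAGAGTGCTGGAGCCCAG
Gm14205: cctatggctaggaagCCCGCTTCCCACGCC
Gm38287: CGGGTCTCACGAGCGGCGGATGTCGGCTCC
In Gm28221, Gm20659 and Gm38287 all 30 bases face a partner exon. In Chn1os1 and Gm14205 the first exon lies outside the partner's exons at the join and the second lies inside them. In Gm14703 none of the 30 bases face an exon of Syp.

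The most abundant member was Chn1os1 (chr2:73658270-73660263, plus strand, GRCm38, 636 bases in 2 exons). It faces the 5' UTR and coding exons of Chn1, which encodes alpha-chimaerin, a neuronal protein that switches off the small GTPase Rac. Chn1os1 measured 339, 308, 303, 304 and 323 FPKM in TG10M and 315, 302, 307, 335 and 372 FPKM in WT10M. At 3 months it measured 304, 267, 290, 316 and 296 FPKM in TG03M and 305, 311, 304, 325 and 317 FPKM in WT03M. The groups overlapped at both ages, and Chn1 itself averaged 443 FPKM.

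Next came Gm28221 (chr15:37367205-37368498, plus strand, 347 bases), all of it opposite the 3' UTR of Ncald, the neuronal calcium sensor neurocalcin delta. It measured 296, 243, 219, 261 and 330 FPKM in TG10M and 249, 229, 242, 273 and 288 FPKM in WT10M. The 3-month values were 254, 235, 266, 306 and 279 FPKM in TG03M and 248, 213, 236, 256 and 265 FPKM in WT03M. The TG10M and WT10M ranges overlapped, as did those at 3 months, and Ncald averaged 328 FPKM.

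Gm14703 (chrX:7651106-7657258, minus strand, 1820 bases) faces the 3' UTR of Syp with 48.1% of its bases; Syp encodes synaptophysin, a membrane protein of synaptic vesicles. It measured 70.9, 114, 97.5, 99.5 and 73.0 FPKM in TG10M and 115, 114, 120, 113 and 66.0 FPKM in WT10M. The 3 lowest values of all 20 were those of the libraries set apart, where Syp was also low, at 293 and 297 FPKM in TG10M 1 and 5 and at 262 FPKM in WT10M 5. The other 17 libraries had 367 to 499 FPKM of Syp. At 3 months Gm14703 measured 103, 117, 112, 101 and 109 FPKM in TG03M and 134, 115, 119, 125 and 128 FPKM in WT03M. Those 3-month groups overlapped at 1 library of each. The log2 difference of Gm14703 at 10 months was -0.21 with all libraries and -0.16 without those set apart, with limma adjusted p of 0.708 and 0.55.

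Gm20659 (chr11:101971143-101971859, plus strand), all of it opposite the 3' UTR of the phosphatase gene Dusp3, averaged 66.0 ± 5.54 FPKM in TG10M and 59.5 ± 3.10 FPKM in WT10M (SD, n = 5 each). At 3 months it averaged 68.5 ± 6.18 FPKM in TG03M and 61.6 ± 3.56 FPKM in WT03M (SD, n = 5 each). The group differences of about the same size at each age were not called by the test described below, with limma adjusted p of 0.58 at 10 months and 0.796 at 3 months.

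Of the rest of the first 10, 5 are described here, with means between 26.8 and 31.3 FPKM. Gm20463 (31.0 FPKM) faces the 3' UTR of Rnf5, a ubiquitin ligase of the endoplasmic reticulum, Gm13610 (28.2 FPKM) that of Prrc2b and Gm17122 (26.8 FPKM) that of Coro1c, an actin-binding coronin. Gm15648 (31.3 FPKM) and Gm17104 (28.3 FPKM) have no position in the annotation used. Gm14205, at rank 11 with a mean of 25.8 FPKM, faces coding and 5' UTR exons of Slc32a1, the vesicular GABA transporter of inhibitory neurons.

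Levels fell off steeply after these. The median of the 200 was 3.27 FPKM, and 36 had a mean of 10 FPKM or more. The last inside were Gm44646 (1.24 FPKM), A730035I17Rik (1.21 FPKM) and Gm15417 (1.21 FPKM), and the first outside were Gm17202 (1.20 FPKM), another transcript of Zeb2os (1.18 FPKM) and 9330020H09Rik (1.18 FPKM). Together the 200 held 89.3% to 92.0% of the FPKM of all annotated antisense transcripts in each library.

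Most members were less abundant than the partner. The mean was above the partner's in 34 of the 182 whose partner had a value (18.7%), against 32 of 416 (7.69%) among the less abundant antisense transcripts. Members were chosen for a high mean, which by itself raises this share, so the contrast is no finding about them. The median member stood at 36.1% of its partner's level. That median was 40.7% for overlapping exons, 57.8% for those mostly opposite a 3' UTR, and 14.5% for divergent members. The antisense RNA was the higher of the pair for Gm14205 over Slc32a1 (25.8 against 17.2 FPKM) and for Gm20463 over Rnf5 (31.0 against 14.97 FPKM). The deposited values do not state whether the library or the counting kept the strand, and where it was not kept, reads from the antisense RNA and its partner cannot be told apart.

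**Figure D1:**
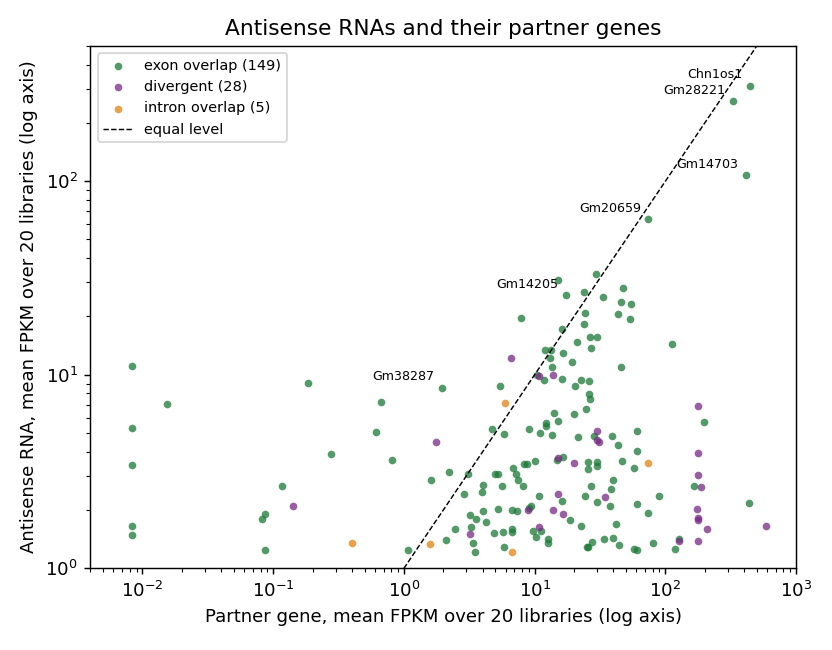
Mean FPKM of each antisense RNA (vertical, log axis) against that of its partner gene (horizontal, log axis) over 20 libraries, coloured by position; the dashed line marks equal levels. Points above the line are the 34 of 182 members that exceeded the partner, and Chn1os1, Gm28221 and Gm14703 lie at the upper right, below it.

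The effect of the transgene at 10 months was tested with limma on log2(FPKM + 0.1) over the 3413 transcripts outside the mRNA table with a mean of at least 0.1 FPKM; such a fold change understates that of low transcripts. No member was called at a limma adjusted p under 0.05. Across all transcripts tested, 6 were higher (0.176%) and 2 lower (0.0586%) in TG10M. At an unadjusted p under 0.05 limma gave 20 of the 200 members (10%), 5 higher and 15 lower, against 8.73% of all transcripts tested. The median difference of the members, TG10M minus WT10M, was -0.05, against -0.14 over all transcripts tested, and the member median turned to 0.04 under quantile normalization. The median standard error of a member's difference was 0.19. A call needs a difference of several standard errors, so differences well above 0.19 could go uncalled in a typical member.

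The 3 members with the smallest p at 10 months were Rab10os, Gm13999 and Gm44123. The longest Rab10os transcript (chr12:3235504-3241410, plus strand, 4006 bases) has no exon opposite Rab10, a small GTPase of vesicle traffic that gives the locus its name. It measured 5.16, 5.48, 6.45, 5.60 and 5.10 FPKM in TG10M and 6.76, 7.54, 7.72, 6.81 and 5.65 FPKM in WT10M. Only WT10M 5, the wild-type library with mt-Co1 above that of every other library, lay within the TG10M range. The log2 difference was -0.30 ± 0.09 (SE), with a limma adjusted p of 0.468.

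At 3 months that Rab10os transcript also had the smallest p. It measured 5.51, 4.98, 4.85, 5.19 and 5.77 FPKM in TG03M and 6.09, 6.74, 7.22, 6.35 and 6.96 FPKM in WT03M. Every TG03M library was below every WT03M library, and the log2 difference was -0.34 ± 0.09 (SE), with a limma adjusted p of 0.449. The other 3 Rab10os transcripts among the members differed by -0.01, 0.10 and 0.13 at 10 months and by -0.11, 0.05 and 0.33 at 3 months. Transcripts of a gene share exons, and the authors' estimate divides the shared reads among them.

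Gm13999 (chr2:120024807-120027453, minus strand) faces coding and 3' UTR exons of Mapkbp1, whose product binds kinases of the JNK pathway. It measured 4.69, 4.46, 3.88, 5.12 and 3.19 FPKM in TG10M and 5.37, 6.48, 6.28, 5.19 and 4.55 FPKM in WT10M. The 10-month groups overlapped at WT10M 5, and the log2 difference was -0.38 (limma adjusted p of 0.468). At 3 months it averaged 5.78 ± 0.39 FPKM in TG03M and 5.38 ± 0.44 FPKM in WT03M (SD, n = 5 each), a log2 difference of 0.10. The difference between the ages, -0.49, was not called (limma adjusted p of 0.989). Mapkbp1 differed by -0.14 at 10 months (limma adjusted p of 0.264).

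Gm44123 (chr6:90689731-90690829, plus strand) lies almost wholly opposite coding exons of Iqsec1, an exchange factor for Arf GTPases at synapses. It measured 28.8, 30.3, 27.8, 27.3 and 25.6 FPKM in TG10M and 22.8, 22.3, 22.3, 24.8 and 25.3 FPKM in WT10M. All TG10M libraries were above all WT10M libraries, and the log2 difference was 0.25, with a limma adjusted p of 0.488. Iqsec1 differed by 0.15 in the same comparison (limma adjusted p of 0.258).

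**Figure D2:**
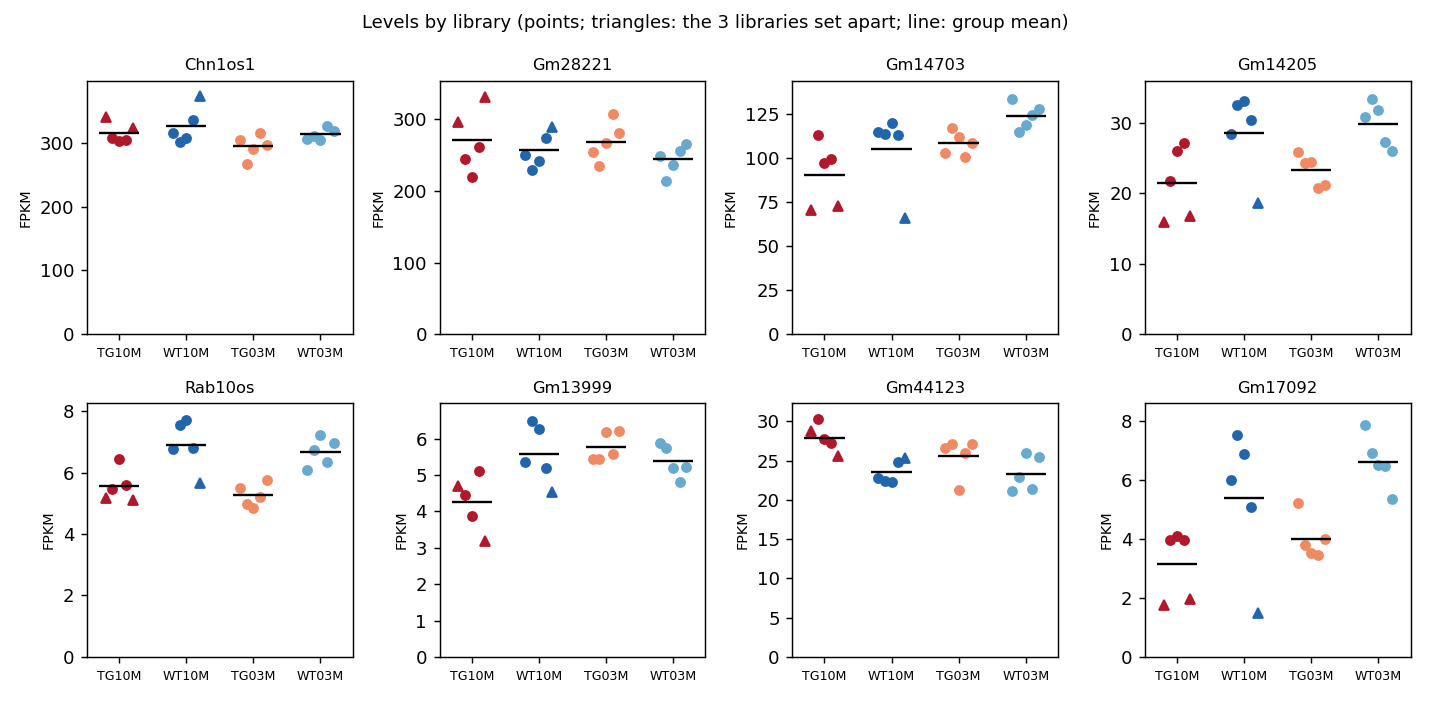
FPKM (vertical, from 0) of 8 members in each library of TG10M, WT10M, TG03M and WT03M; points are libraries, triangles the 3 libraries set apart (TG10M 1 and 5, WT10M 5) and black lines group means, and the Rab10os panel shows its longest transcript. Gm14703, Gm14205 and Gm17092 are low in the triangles of both genotypes, while every TG03M point of Rab10os lies below every WT03M point.

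Gm17092, named here after its values were seen, faces 5' UTR and coding exons of Hnrnpd (chr5:99977686-99978858, plus strand), which encodes an RNA-binding protein of mRNA decay. It measured 1.76, 3.97, 4.09, 3.96 and 1.95 FPKM in TG10M and 6.00, 7.52, 6.89, 5.07 and 1.50 FPKM in WT10M. The low values in TG10M 1 and 5 and in WT10M 5 are those of the libraries set apart, where Hnrnpd was also low, at 13.7, 14.5 and 13.4 FPKM. At 3 months Gm17092 measured 5.21, 3.80, 3.53, 3.47 and 4.01 FPKM in TG03M and 7.87, 6.93, 6.50, 6.47 and 5.34 FPKM in WT03M. Those 3-month groups did not overlap.

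The log2 difference of Gm17092 was -0.67 at 10 months (limma adjusted p of 0.58) and -0.72 at 3 months (limma adjusted p of 0.78). Without the 3 libraries set apart the 10-month value was -0.64, with a limma adjusted p of 0.274. It was not called in any of these fits.

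Gm14205 measured 15.9, 21.8, 26.1, 27.2 and 16.7 FPKM in TG10M and 28.3, 32.5, 33.0, 30.4 and 18.6 FPKM in WT10M. Its partner Slc32a1 measured 7.74, 14.7, 17.9, 16.2 and 9.40 FPKM in TG10M and 20.4, 23.6, 22.1, 18.3 and 8.67 FPKM in WT10M. The libraries set apart were the lowest of each group for both RNAs. The log2 difference of Gm14205 was -0.41 at 10 months with all libraries and -0.32 without those 3, with limma adjusted p of 0.549 and 0.388. At 3 months it averaged 23.3 ± 2.22 FPKM in TG03M and 29.8 ± 3.12 FPKM in WT03M (SD, n = 5 each), and every TG03M library was below every WT03M library; the log2 difference was -0.36, with a limma adjusted p of 0.78.

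At 3 months no member was called either, beside 4 higher (0.117%) and 0 lower transcripts (0%) among all 3413 tested. Limma gave 16 of the 200 (8%) at an unadjusted p under 0.05, 4 higher and 12 lower, against 6.30% of all. The median difference was -0.04, against -0.06 over all transcripts tested, and turned to 0.03 under quantile normalization. Behind Rab10os came 1500015A07Rik, opposite Afap1l1, with 1.64 ± 0.20 FPKM in TG03M and 2.33 ± 0.34 FPKM in WT03M (SD, n = 5 each), a log2 difference of -0.48 (limma adjusted p of 0.557).

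The third was A830036E02Rik (chr11:99417243-99423098, plus strand), which faces exons of the keratin gene Krt12. It measured 0.11, 4.90, 4.55, 0.11 and 5.52 FPKM in TG03M and 5.13, 9.38, 5.93, 4.64 and 5.66 FPKM in WT03M. TG03M 1 and 4 were near 0 and the remaining 18 libraries of the series lay between 3.68 and 9.38 FPKM. Krt12 was 1.76 and 1.40 FPKM in TG03M 1 and 4 and 4.12 to 5.13 FPKM in the other TG03M libraries.

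The log2 difference of A830036E02Rik was -2.10 ± 0.76 (SE), with a limma adjusted p of 0.621. TG03M 1 and 4 also had the highest levels of the choroid plexus marker Ttr, 810 and 996 FPKM. Ttr stood at 312 to 492 FPKM in TG10M 1 and 2 and in WT10M 1 and 3, where A830036E02Rik measured 4.49, 4.86, 5.42 and 5.69 FPKM. The part of tissue composition in this difference was not tested.

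**Figure D3:**
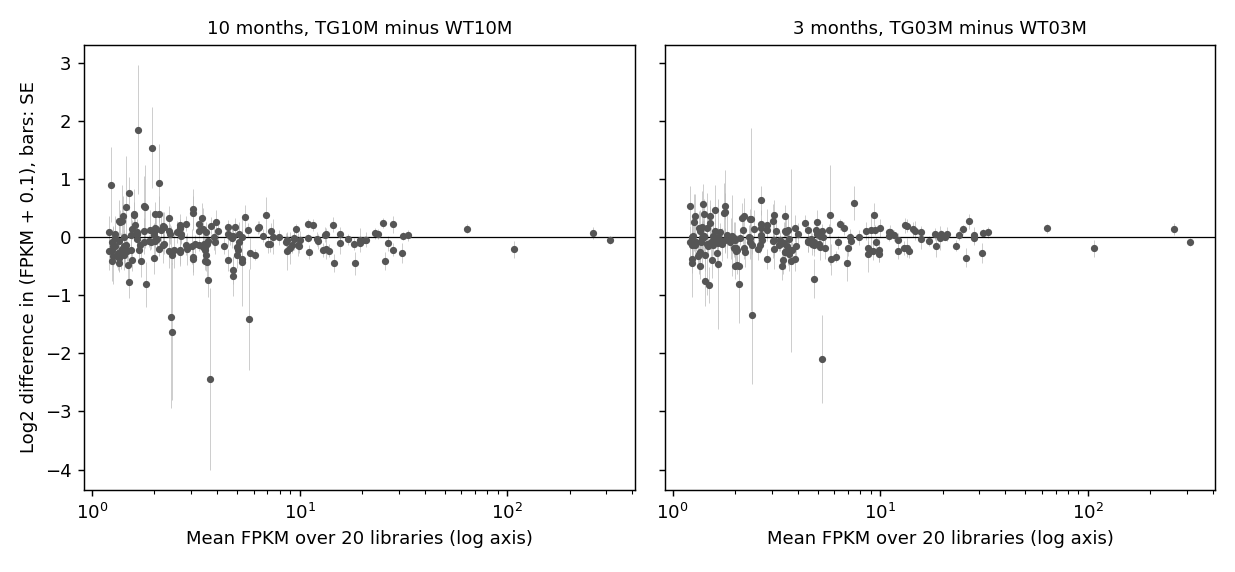
Log2 difference in FPKM + 0.1 (vertical, bars are standard errors) of the 200 members against mean FPKM (horizontal, log axis), for TG10M minus WT10M at left and TG03M minus WT03M at right. The points scatter around 0, with wider bars among members of low mean, and none was called at a limma adjusted p under 0.05.

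Age was compared within each genotype. In transgenic cortex no member was called between TG10M and TG03M, where 0 of all 3413 transcripts were higher (0%) and 0 lower (0%). Limma gave 17 of the 200 at an unadjusted p under 0.05, 5 higher and 12 lower, which is 8.5% against 6.56% of all. The smallest p belonged to Gm16105 (chr10:81461159-81462972, plus strand), opposite the 3' UTR of Celf5, an RNA-binding regulator of splicing.

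Gm16105 measured 11.7, 10.1, 13.2, 10.96 and 8.64 FPKM in TG10M and 14.7, 15.3, 16.2, 19.2 and 19.8 FPKM in TG03M. The ages did not overlap, and the log2 difference was -0.64 ± 0.16 (SE), with a limma adjusted p of 0.402. Without the libraries set apart it was -0.57 (limma adjusted p of 0.458). Celf5 differed by -0.42 (limma adjusted p of 0.131).

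Gm13999 was next, at -0.44 (limma adjusted p of 0.474), and did not overlap between TG10M and TG03M. Its partner Mapkbp1 was the only one of the 148 partner genes tested that was called in any of the 5 comparisons. Mapkbp1 fell by 0.25 on the log2 scale in TG10M relative to TG03M (limma adjusted p of 0.0294), measuring 7.97, 8.41, 8.66, 8.53 and 7.44 FPKM in TG10M and 9.74, 9.30, 9.86, 9.84 and 10.6 FPKM in TG03M. Without the libraries set apart, whose TG10M values were the 2 lowest, the difference was -0.20 and was not called (limma adjusted p of 0.115). Among all 13722 genes in that comparison 88 were higher (0.641%) and 28 lower (0.204%). No partner was called for age in wild type, beside 7 higher (0.051%) and 2 lower (0.0146%) of all genes, or for the difference between ages, beside 5 higher (0.0364%) and 0 lower (0%). The third member, Gm16033 opposite the 3' UTR of the metalloprotease gene Adam19, differed by -0.76 (limma adjusted p of 0.617).

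In wild-type cortex no member was called between WT10M and WT03M, beside 1 higher (0.0293%) and 3 lower (0.0879%) of all transcripts tested. Limma gave 17 of the 200 (8.5%) at an unadjusted p under 0.05, 7 higher and 10 lower, against 6.33% of all. Gm17122, opposite the 3' UTR of Coro1c, measured 32.2, 24.98, 30.9, 32.3 and 31.9 FPKM in WT10M and 21.4, 21.3, 22.5, 24.5 and 18.6 FPKM in WT03M. The ages did not overlap, and the log2 difference was 0.49 ± 0.13 (SE), with a limma adjusted p of 0.425. In the transgenic libraries the same age difference was 0.11 (limma adjusted p of 0.927).

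AW495222, whose partner Dmgdh averaged 0.12 FPKM, measured 2.90, 3.85, 3.64, 3.14 and 2.31 FPKM in WT10M and 1.47, 1.22, 3.58, 1.58 and 1.61 FPKM in WT03M. Only WT03M 3 reached the WT10M range. The log2 difference was 0.80 (limma adjusted p of 0.58), and without WT03M 3 it was 1.05, with a limma adjusted p of 0.0369, the single alternative in which this comparison called a member. A 389-base transcript of 4933431E20Rik, which starts 9 bases from the glutathione transferase gene Gstm5 and runs the other way, differed by -0.88 (limma adjusted p of 0.657).

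The test of the difference between the ages in the effect of the transgene called no member, beside 2 higher (0.0586%) and 0 lower (0%) of all transcripts tested. Limma gave 11 of the 200 (5.5%) at an unadjusted p under 0.05, 3 higher and 8 lower, against 4.01% of all, and the lowest adjusted p was 0.989. Chrna1os, annotated near the muscle acetylcholine receptor gene Chrna1, had the largest of the 3 leading values, -1.12. It averaged 1.16 ± 0.41 FPKM in TG10M and 1.99 ± 0.50 FPKM in WT10M, and 1.65 ± 0.62 FPKM in TG03M and 1.24 ± 0.37 FPKM in WT03M (SD, n = 5 each).

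Groups of members by the kind of partner were described by counts, and limma called none of them in any comparison. The 14 with a channel, receptor or synapse partner had a median of -0.04 at 10 months (range -0.43 to 0.25), against -0.14 over all transcripts tested. Limma gave 2 of these 14 at an unadjusted p under 0.05, where it gave 8.73% of all transcripts tested. They were Gm14205 and 4632427E13Rik, whose partner Rab30 is a Golgi GTPase that the list caught by its name, as it did Rab39b. Kcnmb4os2, opposite the BK potassium channel subunit Kcnmb4, averaged 9.89 ± 0.64 FPKM in TG10M and 9.01 ± 0.74 FPKM in WT10M (SD, n = 5 each). Gm36937, opposite the potassium channel gene Kcnj9, averaged 2.53 ± 1.15 FPKM in TG10M and 3.31 ± 0.82 FPKM in WT10M (SD, n = 5 each).

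The 8 members with a transcription factor partner had a median of -0.05 at 10 months (range -0.31 to 0.33), and none had an unadjusted p under 0.05 in limma. Antisense RNAs of developmental loci were among them. Dlx6os1 and Dlx1as come from Dlx loci that mark inhibitory neurons. Zeb2os comes from the locus of a transcriptional repressor that acts in neural crest and interneuron development. Dlx6os1 averaged 6.82 ± 1.06 FPKM in TG10M and 7.39 ± 1.16 FPKM in WT10M (SD, n = 5 each). Dlx1as averaged 4.27 ± 0.91 FPKM in TG10M and 5.37 ± 1.45 FPKM in WT10M, and Zeb2os 3.68 ± 0.57 FPKM in TG10M and 3.17 ± 0.76 FPKM in WT10M (SD, n = 5 each). These groups overlapped.

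Tau binds microtubules, and 5 members had a cytoskeleton, motor or tau-related partner by the list, though Ankrd53, caught by its name, is not an ankyrin. Their median was -0.08 at 10 months (range -0.57 to 0.93), and limma gave 1, Gm42884, at an unadjusted p under 0.05. Gm42884, opposite the 5' UTR of the microtubule plus-end gene Clip2, averaged 3.71 ± 1.17 FPKM in TG10M and 5.43 ± 1.42 FPKM in WT10M (SD, n = 5 each), a log2 difference of -0.57 (limma adjusted p of 0.555). A transcript of 1110002L01Rik, opposite the kinesin gene Kif3c, averaged 4.24 ± 0.66 FPKM in TG10M and 4.68 ± 0.37 FPKM in WT10M, and 9130221H12Rik, opposite the tau kinase gene Gsk3a, 4.97 ± 0.28 FPKM in TG10M and 5.28 ± 0.52 FPKM in WT10M (SD, n = 5 each). The highest difference was that of 1700124L16Rik, divergent from Ankrd53, at 0.93 (limma adjusted p of 0.708). It measured 0.81, 1.72, 1.33, 2.75 and 1.68 FPKM in TG10M and 3.36, 0.48, 0, 1.04 and 1.98 FPKM in WT10M, and these groups overlapped. Its difference for age in wild type was -1.92 (limma adjusted p of 0.657).

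Of 3 members with a glial or immune partner by the list, 1 was caught only by name, since Cdkl1 is a kinase gene. Gm13872, opposite the astrocyte glutamate transporter gene Slc1a2, averaged 2.16 ± 0.50 FPKM in TG10M and 1.93 ± 0.62 FPKM in WT10M. Gm16894, in an intron of the decoy interleukin receptor gene Il1r2, averaged 1.14 ± 0.29 FPKM in TG10M and 1.51 ± 0.44 FPKM in WT10M (SD, n = 5 each). The median of the 3 was 0.13 at 10 months (range -0.36 to 0.19). The lists of imprinted-locus antisense RNAs and of snoRNA hosts held 0 members. Both are short lists of fixed names, so members from other such loci would be missed.

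Whether an antisense RNA moved apart from its partner was tested on the ratio of their levels, for 168 members among 522 pairs. Limma called 0 of the 168 at 10 months and 0 at 3 months, as for all 522 pairs (0% higher and 0% lower at each age). At an unadjusted p under 0.05 it gave 12 of the 168 at 10 months (7.14%, against 6.51% of all 522 pairs) and 14 at 3 months (8.33%, against 7.09%). The largest ratio difference at 3 months was that of A830036E02Rik to Krt12, -1.54 ± 0.56 (SE), with a limma adjusted p of 0.585. At 10 months it was that of the 257-base Atad3aos to Atad3a, -2.48 ± 1.60 (SE), with a limma adjusted p of 0.792. For Gm17092 to Hnrnpd at 3 months it was -0.57 (limma adjusted p of 0.631). The partner genes themselves were called in 0 of 148 cases for genotype, beside 80 higher (0.583%) and 7 lower (0.051%) of 13722 genes at 10 months, and 38 higher (0.277%) and 3 lower (0.0219%) at 3 months.

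Within groups, the values of some antisense RNAs followed those of the partner from library to library. For each of the 168 pairs the deviations from group means were correlated over the 17 libraries outside those set apart, with p-values from 100000 relabellings within groups and Benjamini-Hochberg adjustment over the 168. Among 137 pairs with overlapping exons the median r was 0.25, and 16 were called, all of positive sign. Among 27 divergent pairs the median r was 0.16 and 0 were called by this permutation test, with 3 at an unadjusted p under 0.05. The difference between these classes was not tested. Whether the strand was kept is not given. Partner reads counted for the antisense RNA and a shared variation of both RNAs therefore cannot be told apart in overlapping pairs.

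D430036J16Rik, opposite the coding exon of the serotonin receptor gene Htr1b, and D930019O06Rik, opposite exons of Creg2, a gene for a secreted glycoprotein of brain, were named after their values were seen. For D430036J16Rik and Htr1b r was 0.91 (permutation p of 1e-05, the smallest that 100000 relabellings can give, adjusted 0.00168), with rho of 0.90 (permutation p of 5e-05). Without the 2 libraries farthest from the median of Htr1b r was 0.90. For D930019O06Rik and Creg2 r was 0.89 (permutation p of 7e-05, adjusted 0.00588), rho 0.86 (permutation p of 8e-05) and r without 2 libraries 0.87. Leaving out each library in turn kept these 2 pairs called and ended the call of each of the other 14 at least once.

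D430036J16Rik measured 1.20, 2.37, 2.58, 4.20 and 2.54 FPKM in TG03M, beside 2.69, 3.52, 4.63, 5.96 and 4.002 FPKM of Htr1b in the same libraries. In WT03M it measured 2.25, 3.22, 3.00, 2.43 and 0.88 FPKM, beside 3.38, 6.61, 5.23, 3.25 and 2.22 FPKM of Htr1b. Library TG03M 4 was the highest and WT03M 5 the lowest for the antisense RNA. The Htr1b level was low in WT03M 5 as well, and its highest value was in WT03M 2. Striatal markers moved with this pair in part. Their summed level was 199, 401, 267, 307 and 149 FPKM in TG03M and 268, 371, 390, 336 and 149 FPKM in WT03M. WT03M 5 was lowest of its group for the markers, the antisense RNA and Htr1b, and TG03M 5 was lowest of its group for the markers alone. The correlation also held 10-month libraries. In TG10M 2, 3 and 4 the markers summed to 150, 357 and 272 FPKM, with Htr1b at 2.22, 4.64 and 3.59 FPKM. In WT10M 1 to 4 the markers summed to 432, 405, 415 and 362 FPKM, with Htr1b at 4.03, 5.39, 5.05 and 3.93 FPKM. The part of striatal tissue in the correlation was not tested.

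The pair Gm38287, also named after its values were seen, and Nrarp, a feedback inhibitor of Notch signalling, had r of 0.93 (permutation p of 0.0013, adjusted 0.024), and rho of 0.78 (permutation p of 0.00561, adjusted 0.0739). Every base of Gm38287 faces an Nrarp exon, and it averaged 8.59 FPKM against 1.94 FPKM of Nrarp. For Gm14205 and Slc32a1 r was 0.70 (permutation p of 0.00453, adjusted 0.0493), rho 0.64 (permutation p of 0.0118, adjusted 0.0941) and r without 2 libraries 0.69. Without WT03M 2 the number of called pairs was 2. It was 9 without TG03M 4, and 10 without TG10M 3 or without WT10M 3.

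**Figure D4:**
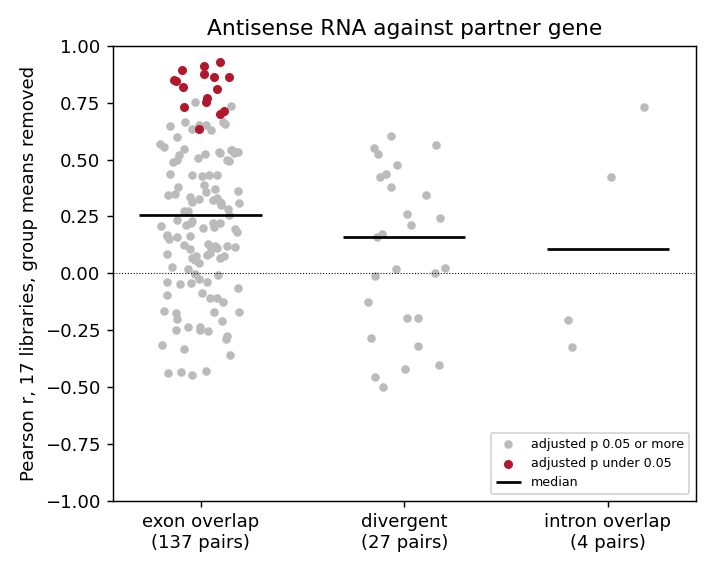
Pearson r (vertical) between the antisense RNA and its partner gene over 17 libraries after removing group means, by position of the pair (horizontal); points are pairs, red where the permutation p adjusted over 168 pairs was under 0.05, and lines are medians. The 16 red points are all pairs with overlapping exons and positive r.

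A divergent pair shows the other arrangement. 2810001G20Rik (chr11:64079484-64083259, plus strand) starts 18 bases from Cox10, an enzyme of heme A synthesis for mitochondrial complex IV, which runs on the minus strand. The RefSeq promoter window of 2810001G20Rik (GRCm38.p6, chr11:64079234-64079533, plus strand, 250 bases before the start to 50 after) is printed with each CG in capitals, a motif that reads CG on both strands.
2810001G20Rik: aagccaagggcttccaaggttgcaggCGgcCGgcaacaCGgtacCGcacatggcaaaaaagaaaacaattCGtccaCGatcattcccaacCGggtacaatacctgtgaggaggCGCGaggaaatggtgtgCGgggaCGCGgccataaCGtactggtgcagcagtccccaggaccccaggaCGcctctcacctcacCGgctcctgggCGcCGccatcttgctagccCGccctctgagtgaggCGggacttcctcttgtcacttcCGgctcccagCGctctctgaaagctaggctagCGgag
It holds 22 CG, and 23.1% of 32851 RefSeq promoter windows hold as many or more. The level of 2810001G20Rik averaged 12.1 ± 1.89 FPKM in TG10M and 12.7 ± 2.15 FPKM in WT10M, and 11.04 ± 1.65 FPKM in TG03M and 13.1 ± 1.34 FPKM in WT03M (SD, n = 5 each). Over the 17 libraries r with Cox10 was -0.29 (permutation p of 0.347, adjusted 0.608), with rho of -0.37 (permutation p of 0.203) and r of -0.07 without 2 libraries. This pair, too, was chosen after its values were seen.

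RefSeq gives 1 window per gene, which need not be that of the member transcript. Windows were found for 65 of the 172 member genes, with a median of 19 CG, against 7 over all windows. The 15 found among the 21 genes of divergent members had a median of 28. The members were chosen for a high level, and windows of other expressed genes or of less abundant antisense RNAs were not compared.

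How far a member's level could be trusted depended on its length. The standard deviation within groups on the log2 scale had a median of 0.22 among members of 1000 bases or more and of 2.03 among the 5 shorter than 300 bases. Below 0.01 FPKM in 1 or more libraries were 11 members, and 10 of these were shorter than 500 bases.

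1700034H15Rik (250 bases) was listed at 0 in 7 libraries and at 2.28 FPKM or more in the other 13. Atad3aos (257 bases) was at 0 in 6 libraries and at 2.39 FPKM or more in the others, while its divergent partner Atad3a kept between 13.7 and 16.6 FPKM. Sardhos (265 bases) and Gm12279 (294 bases) were at 0 in 4 libraries each, and Gm33051 (274 bases) in 1. These 5 were named after their values were seen, and whether a listed 0 is an absence or a failed estimate was not tested. They include the largest difference at 10 months, -2.44 for Atad3aos, which had a limma adjusted p of 0.668.

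**Figure D5:**
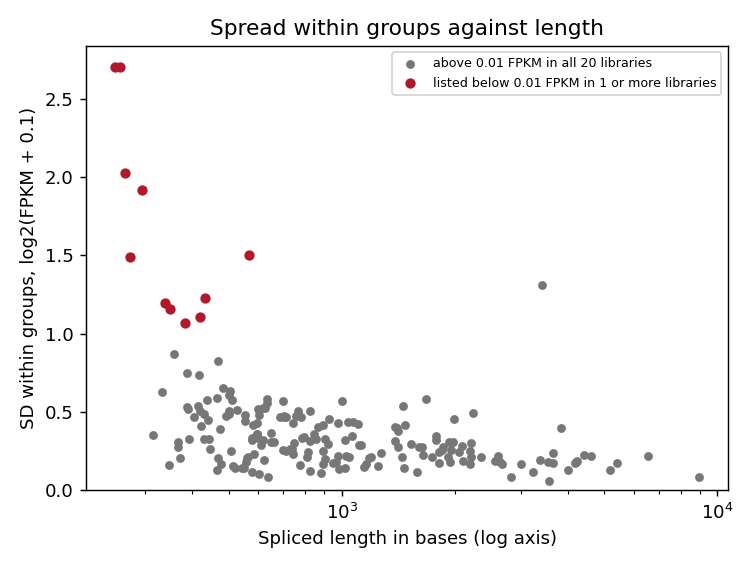
Standard deviation within groups of log2(FPKM + 0.1) (vertical) against spliced length in bases (horizontal, log axis) for the 197 members with an annotated length; red points were listed below 0.01 FPKM in 1 or more of 20 libraries. The 5 members shorter than 300 bases lie at 1.49 to 2.70, above nearly all longer ones.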

How the data were processed

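Per the labels, libraries came from total RNA of frozen cortex with an integrity number above 7; whether they keep the strand is not given in the sources used. Per the submitters' processing notes, CASAVA, TopHat2, Cuffdiff and DESeq2 were used with GRCm38 (mm10). The authors deposited FPKM values for each transcript and library, and these were used as they stand, with no column left unmapped (0 columns). Partner gene levels are sums of the deposited mRNA FPKM over a gene. Current symbols and positions come from GENCODE M21 by transcript identifier.

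The 200 members and all lists were chosen with earlier results of these data known. Named members are the 10 with the highest mean, called members and, where fewer than 3 were called, the 3 with the smallest p in each comparison, up to 4 per list by p at 10 months, and the 3 ranks on each side of rank 200; any other, and the choice of printed sequences, came after values were seen. Transcripts with a mean of at least 0.1 FPKM (genes 0.5) were tested as log2(FPKM + 0.1) (genes 0.5) in 1 limma 3.58.1 fit of all 20 libraries, two-sided, with trend and Benjamini-Hochberg adjustment, after tests on simulated data. Depth was estimated from steps between low values, which limits the precision of low members; 73.1% to 90.5% of low values lay within 0.1 of a whole number of fragments. Alternatives were other pseudocounts, filters, scalings, array weights, a replicate block and leaving libraries out. Pair correlations were added after the data were seen. Of the 10 members with the highest mean, 1 is not reported here.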

Additional observations from a re-analysis of the deposited data

Results flagged for a closer look

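In groups of 5 libraries, the highest or lowest value of a named member was looked at for distance from its nearest neighbour, in 120 groups of 30 members. Chance flags about 1 in 20 such groups, and 10 stood apart. Gm14703 was 66.0 FPKM in WT10M 5, with the next at 113 FPKM, and Gm13610 was 23.0 FPKM in the same library, a library set apart, with the next at 29.5 FPKM. Gm17122 was 24.98 FPKM in WT10M 2. Gm44123 was 21.2 FPKM in TG03M 3. A830036E02Rik was 7.91 FPKM in TG10M 5 and 9.38 FPKM in WT03M 2, the highest of their groups. AW495222 was 3.58 FPKM in WT03M 3, with the next at 1.61 FPKM. The 389-base transcript of 4933431E20Rik was 14.3 FPKM in WT03M 5. Of the short transcripts, Gm12279 was 6.83 FPKM in WT03M 2 and Gm33051 was 13.8 FPKM in WT03M 5, with the next at 3.51 FPKM.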

How the results depend on the processing

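The count of called members stayed at 0 in 143 of 144 alternatives, beside the fit added below, over the 5 comparisons and the 2 ratio tests. Leaving out 1 library gave 0 to 1 for age in wild type, where AW495222 was called without WT03M 3, and 0 in every other comparison. The replicate block also gave 0 called members in each comparison and ratio, so the block changed no call. Deviations of libraries with the same replicate number had r of -0.062 to 0.18. The highest, 0.18, was that of TG10M 5 and WT10M 5, both among the libraries set apart. Chosen after seeing the data, a fit without the 7 libraries low in Hsp90aa1 gave 1 called member at 3 months, 1 for age in transgenics, 1 for the interaction and 1 for the ratio at 3 months, and 0 in the other 3 results. It was A830036E02Rik each time, and rests on TG03M 1, the only TG03M library left and assumed to vary like the other groups. Of 339 values of the 15 leading results under the alternatives, 0 changed direction and 2 became called. The lowest adjusted p of any member at 10 months ranged from 0.0558 to 0.727. The 16 called pairs with overlapping exons became 32 with all 20 libraries, 9 without the 7 libraries low in Hsp90aa1 (12 libraries, since the remaining TG03M library was left out too), and 2 to 15 when 1 library was left out; the cause was not tested. Divergent pairs stayed at 0. Low members are limited by depth and length: the estimated fragments at a member's mean level had a median of about 83 over the 197 members with a length.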

Other observations

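Of 11 loci with more than 1 member, the log2 differences at 10 months had 1 sign within 4, among them 1110002L01Rik and Pcsk2os1, and both signs within 7. 4933431E20Rik, the largest such locus, gave 11 members, with log2 differences from -0.81 to 0.54, and starts beside Gstm5. Its most abundant transcript (5407 bases) averaged 9.62 ± 1.40 FPKM in TG10M and 11.5 ± 1.64 FPKM in WT10M (SD, n = 5 each), a log2 difference of -0.26 (limma adjusted p of 0.555). A 2358-base transcript of the same gene averaged 5.60 ± 0.86 FPKM in TG10M and 5.58 ± 0.55 FPKM in WT10M (SD, n = 5 each). A830082K12Rik, beside the cortical patterning gene Nr2f1, gave 7 members, with log2 differences at 10 months from -0.41 for a 2203-base transcript to 0.33 for a 1474-base transcript. None was called.

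The summed level of the 200 members was 1867, 1872, 1832, 1876 and 1885 FPKM in TG10M and 1902, 1889, 1929, 1984 and 1916 FPKM in WT10M. The 10-month groups did not overlap. Nor did the sums over all annotated antisense transcripts, at 2023 to 2075 FPKM in TG10M and 2115 to 2193 FPKM in WT10M. The 200 held 89.3% to 92.0% of that wider sum in each library, so it is nearly the same quantity again. At 3 months the sums of the 200 were 1874, 1854, 1855, 1944 and 1927 FPKM in TG03M and 1912, 1893, 1888, 1935 and 1955 FPKM in WT03M, and these overlapped. No test was made of these sums, since FPKM is a share of all fragments and the summed FPKM of transcripts outside the mRNA table ranged from 18903 to 120201 per library.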
